A study of Caenorhabditis elegans with 22 samples.

Results

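The C. elegans genes ncx-5, gtl-2, mfsd-12, dep-1 and gana-1 carried very little Dam::EMR-1 methylation in wild-type intestine and were followed across 4 backgrounds. They are 5 of 19971 protein-coding genes on the nuclear chromosomes, and they were selected on a very low wild-type ratio of Dam::EMR-1 to GFP::Dam in 10 kb bins. Wild-type values, and differences from wild type, are therefore given as a description without a test. The genes overlap 9 of the 10030 nuclear 10 kb bins and 37 of the 100275 nuclear 1 kb bins. Their 20 kb flanks add 200 bins of 1 kb. The first 4 genes encode transporters, a channel and a signalling phosphatase, whereas gana-1 encodes a lysosomal enzyme, so a common name of membrane transport and signalling does not cover it.

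DamID uses a bacterial adenine methyltransferase, Dam, fused to a protein of interest, and the methylated GATC fragments are then amplified and sequenced. EMR-1, or emerin, sits in the inner nuclear membrane, so Dam::EMR-1 marks DNA that comes close to the nuclear periphery. GFP::Dam is free in the nucleus and marks accessible DNA. In C. elegans the arms of the autosomes tend to lie at the periphery and the gene-rich centres in the interior.

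Both fusions were driven by the uninduced hsp-16.41 promoter and released in the intestine by FLP recombinase under the elt-2 promoter, and DNA came from L1 larvae. The wild-type background (control RNAi) and mrg-1 RNAi used strains GW1377 (Dam::EMR-1) and GW1378 (GFP::Dam). The cec-4 background (control RNAi) and mrg-1 RNAi cec-4 used strains GW1379 and GW1380, which carry the deletion cec-4(ok3124). CEC-4 is a perinuclear chromodomain protein that anchors chromatin methylated at H3K9, while MRG-1, also with a chromodomain, binds active chromatin. Larvae came from mothers fed RNAi bacteria for 66 h at 20 °C and were cultured for 2.5 h with bacteria that lack Dam. The 22 libraries form 8 groups of 3, except that Dam::EMR-1 mrg-1 RNAi and GFP::Dam mrg-1 RNAi hold replicates 2 and 3 only, because the submitters removed 1 replicate for technical reasons. The labels give intestine as the tissue. RNA was not measured, so marker expression could not be used to check it.

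Libraries held 2240348 to 18553316 reads in nuclear 10 kb bins, with a median of 79 to 518 reads per 10 kb bin and 0 to 16 per 1 kb bin. Between 0.598% and 9.95% of 10 kb bins were empty, and Dam::EMR-1 cec-4 replicate 1 had the largest share. The cec-4 gene kept reads in the cec-4 strains: its 1 kb bins held 8.14 to 27.5 CPM (reads of the bins scaled to the nuclear reads of the library) in GFP::Dam cec-4 and 22.9 to 57.4 in GFP::Dam wild type. The labels give no breakpoints, so these bins do not check the deletion, and RNAi leaves the mrg-1 gene in the genome. Strains of the same replicate number were grown in parallel, and p-values measure the spread between these libraries. No molecular identifiers were used to count PCR copies, so a floor of 3 reads covers counting error only.

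In the 3 backgrounds that played no part in choosing the genes, Dam::EMR-1 was called below GFP::Dam at most of the 9 bins. These backgrounds are not fully independent of wild type, because libraries of the same replicate number share variation. Their deviations from group means correlated with those of wild type at r of 0.455 to 0.830 for GFP::Dam and −0.210 to 0.330 for Dam::EMR-1. The effect of this on the calls was not tested. The fitted log2 ratio of Dam::EMR-1 to GFP::Dam was below 0 in 9 of 9 bins in each background. In cec-4, 6 of 9 bins were called lower (edgeR quasi-likelihood test, Benjamini-Hochberg adjusted p under 0.05), against 20.3% of all 9960 tested bins. In mrg-1 RNAi 6 of 9 were called lower against 21.1%, and in mrg-1 RNAi cec-4 9 of 9 against 22.9%. The median ratio over the 9 bins was −3.05 in cec-4, −2.96 in mrg-1 RNAi and −4.18 in mrg-1 RNAi cec-4, where the median of all tested bins was 0.17, −0.06 and 0.11. In wild type, whose values chose the genes, the median was −7.12, or −5.26 with the 2 bins at 0 Dam::EMR-1 reads set to the bound that a floor of 3 reads allows, and 29% of all tested bins were called lower.

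**Figure D1:**
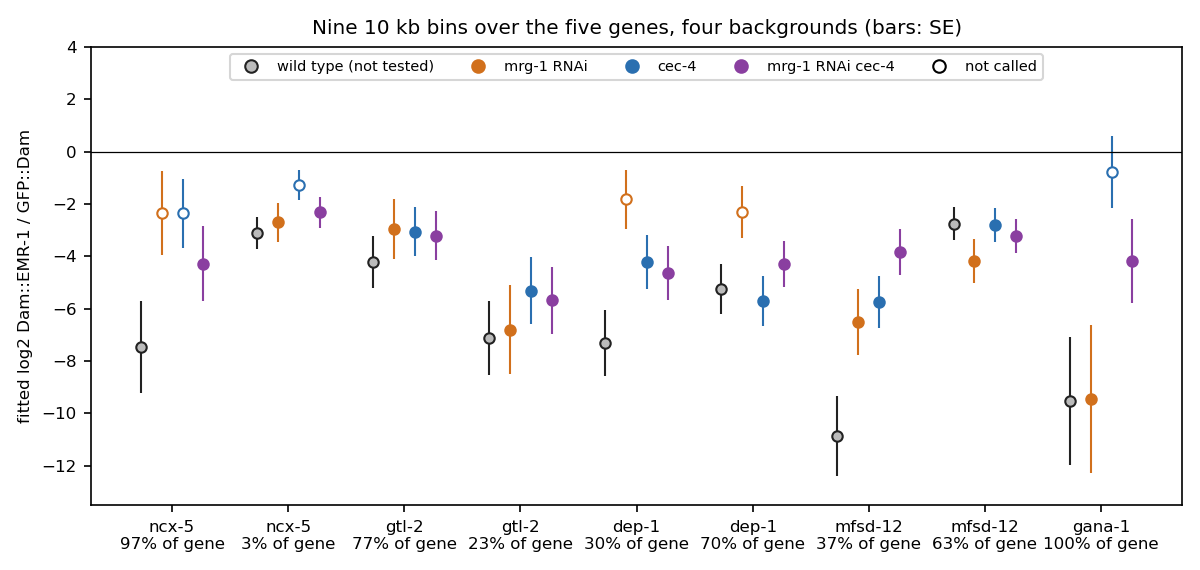
Fitted log2 ratio of Dam::EMR-1 to GFP::Dam (y axis) in each of the 9 bins of 10 kb over the 5 genes (x axis, with the share of the gene in the bin), with SE bars, for the 4 backgrounds. Filled points were called lower, open points were not called, and grey wild-type points were not tested. The lowest points, at mfsd-12 in wild type and at gana-1 in wild type and mrg-1 RNAi, are groups with 0 Dam::EMR-1 reads, whose fitted value depends on the fit's prior count. All 9 mrg-1 RNAi cec-4 points are filled, while 3 are open in cec-4 and 3 in mrg-1 RNAi.

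ncx-5 (chromosome V, 10486361 to 10490098 on ce11) encodes a sodium/calcium exchanger, a membrane protein that moves calcium against sodium. Its bin from 10480001 to 10490000 holds 97.4% of the gene. In wild type 59.1% of the bin's GFP::Dam reads fell in the 1 kb bins of ncx-5. The share was 32.8% in cec-4, 38.4% in mrg-1 RNAi and 34.7% in mrg-1 RNAi cec-4. In these 3 backgrounds the fullest 1 kb bin, from 10481001, lay over the neighbouring gene Y32F6B.1, so the 10 kb values there mostly reflect DNA outside ncx-5. In wild type, Dam::EMR-1 had 0, 1.62 and 0.893 CPM in replicates 1 to 3 and GFP::Dam 55.8, 92.7 and 275. Every GFP::Dam library lay far above every Dam::EMR-1 library, and the fitted log2 ratio was −7.46 ± 1.75 (SE, 7 against 3637 reads).

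In cec-4 the same bin had 0, 15.4 and 8.90 CPM with Dam::EMR-1 and 2.16, 116 and 11.7 with GFP::Dam. The groups overlapped, replicate 1 was low in both fusions, and the ratio of −2.35 ± 1.32 was not called (SE, adjusted p = 0.159, edgeR). In mrg-1 RNAi, Dam::EMR-1 had 2.79 and 21.9 CPM in replicates 2 and 3 and GFP::Dam 83.5 and 60.9. The groups were separate, but Dam::EMR-1 differed widely between replicates, and −2.33 ± 1.61 was not called (SE, adjusted p = 0.249, edgeR). Without Dam::EMR-1 mrg-1 RNAi replicate 3 the ratio was −5.06 and without replicate 2 it was −1.44, neither called. Without GFP::Dam cec-4 replicate 2 the cec-4 ratio was −0.71. Of the 121 Dam::EMR-1 mrg-1 RNAi reads in the bin, 107 fell in the 1 kb bin from 10485001, which does not overlap ncx-5. Pooled over the 1 kb bins of ncx-5 itself, the log2 ratio was −1.55 in cec-4 and −3.92 in mrg-1 RNAi.

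In mrg-1 RNAi cec-4, Dam::EMR-1 at ncx-5 had 0, 14.2 and 1.43 CPM and GFP::Dam 35.0, 145 and 85.5. No library of one fusion reached the other, and the ratio of −4.28 ± 1.44 was called lower (SE, adjusted p = 0.0202, edgeR). The call was lost without Dam::EMR-1 mrg-1 RNAi cec-4 replicate 1 (adjusted p = 0.0638) or replicate 3 (adjusted p = 0.0735, edgeR). Pooled over the 1 kb bins of ncx-5 itself, the log2 ratio was −3.61, and 0 of these 5 bins were called lower.

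The next bin, from 10490001, holds only the last 98 bases of ncx-5, together with aqp-5, an aquaporin gene, and ugt-33. It had more Dam::EMR-1, at 10.0 to 40.9 CPM in wild type. Its ratio was −3.1 ± 0.61 in wild type, −1.29 ± 0.57 in cec-4 (adjusted p = 0.0746), −2.70 ± 0.73 in mrg-1 RNAi (adjusted p = 0.00804) and −2.32 ± 0.59 in mrg-1 RNAi cec-4 (SE, adjusted p = 0.00391, edgeR). In cec-4 the bin was called with the replicate number as a block (adjusted p = 0.0432, edgeR) and by DESeq2 (adjusted p = 0.0194). In mrg-1 RNAi it was not called without Dam::EMR-1 mrg-1 RNAi replicate 3 (adjusted p = 0.0511, edgeR).

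gtl-2 (chromosome IV, 11273451 to 11281992) encodes a TRPM channel with a role in magnesium balance. The low wild-type value came from the bin from 11280001, which holds only 23.3% of the gene, and little of that bin's signal lay in gtl-2 itself. Of its 3893 wild-type GFP::Dam reads, 52.6% fell in the single 1 kb bin from 11288001, over the neighbouring gene F54D1.6, and 0.771% in the 1 kb bins that overlap gtl-2. The share in the 1 kb bins of gtl-2 was 0.136% to 1.51% in the other backgrounds. Over all 9 of its 1 kb bins, gtl-2 had 212 GFP::Dam and 6 Dam::EMR-1 reads in wild type, while its flanks had 8996 and 95.

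In the bin from 11280001, Dam::EMR-1 wild type had 0, 2.60 and 0.893 CPM and GFP::Dam wild type 106, 95.5 and 258. In cec-4, Dam::EMR-1 had 0, 5.06 and 0 and GFP::Dam 5.76, 85.8 and 45.5. In mrg-1 RNAi, Dam::EMR-1 had 2.03 and 0 and GFP::Dam 82.8 and 91.9. Both pairs of groups stayed apart, although GFP::Dam cec-4 replicate 1 was far below its other replicates. In mrg-1 RNAi cec-4, Dam::EMR-1 had 3.90, 5.08 and 1.08 and GFP::Dam 89.7, 108 and 219, also without overlap.

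The ratios there were −7.12 ± 1.43 in wild type, −5.31 ± 1.29 in cec-4 (adjusted p = 0.00344), −6.80 ± 1.71 in mrg-1 RNAi (adjusted p = 0.00539) and −5.68 ± 1.29 in mrg-1 RNAi cec-4 (SE, adjusted p = 0.00192, edgeR). The mrg-1 RNAi call was lost without Dam::EMR-1 mrg-1 RNAi replicate 3 (−5.89, adjusted p = 0.0525, edgeR). Leaving out the only Dam::EMR-1 library with reads, replicate 2 in each case, moved the fitted ratio to −11.29 in cec-4 and −12.36 in mrg-1 RNAi, values fitted against groups at 0 reads.

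The bin from 11270001 holds 76.7% of gtl-2. It had 0.893 to 1.95 CPM with Dam::EMR-1 and 15.0 to 40.3 with GFP::Dam in wild type, and a ratio of −4.22 ± 1.00 (SE). The ratio was −3.05 ± 0.92 in cec-4 (adjusted p = 0.0132), −2.96 ± 1.14 in mrg-1 RNAi (adjusted p = 0.0444) and −3.21 ± 0.93 in mrg-1 RNAi cec-4 (SE, adjusted p = 0.00909, edgeR). The mrg-1 RNAi call was lost when any 1 of the 4 libraries was left out, at adjusted p of 0.0803 to 0.190 (edgeR). The cec-4 call was lost without Dam::EMR-1 cec-4 replicate 3 (adjusted p = 0.0502) or GFP::Dam cec-4 replicate 2 (adjusted p = 0.0593, edgeR), and without Dam::EMR-1 cec-4 replicate 2 the ratio was −4.88. With scaling by library size alone none of the 3 calls held (adjusted p = 0.0724 in cec-4, 0.131 in mrg-1 RNAi and 0.0518 in mrg-1 RNAi cec-4), and with only the contrast's groups those in cec-4 (adjusted p = 0.103) and mrg-1 RNAi (adjusted p = 0.0685) did not (edgeR).

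mfsd-12 (chromosome X, 4668088 to 4673234) encodes a member of the major facilitator superfamily, and its human counterpart works in lysosomes and related organelles. It is the only one of the 5 genes that lies in an outer part of its chromosome when each is divided into 3 equal lengths. The bin from 4660001, with 37.2% of the gene, had the lowest fitted wild-type ratio of all 9960 tested bins, a value fitted to 0 reads. There, Dam::EMR-1 had 0 reads in all 3 wild-type libraries, for which 3 reads correspond to 0.973 to 1.34 CPM, and GFP::Dam had 29.7, 52.8 and 26.2 CPM. With 0 against 767 reads, Dam::EMR-1 was at least 86.6-fold lower, taking a floor of 3 reads over the group.

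In the same mfsd-12 bin in cec-4, Dam::EMR-1 had 0, 1.38 and 0.302 CPM and GFP::Dam 11, 41.2 and 15.7. In mrg-1 RNAi it had 1.01 and 0 against 65.7 and 21.8. In mrg-1 RNAi cec-4 Dam::EMR-1 had 1.5, 4.66 and 1.70 and GFP::Dam 31.2, 52.2 and 19.9. The fusions did not overlap in any background, and mrg-1 RNAi cec-4 had reads in all 3 Dam::EMR-1 libraries. The ratio was −5.74 ± 0.99 in cec-4 (adjusted p = 0.000521), −6.50 ± 1.27 in mrg-1 RNAi (adjusted p = 0.00159) and −3.83 ± 0.88 in mrg-1 RNAi cec-4 (SE, adjusted p = 0.00237, edgeR). Without Dam::EMR-1 mrg-1 RNAi replicate 2, which leaves 0 reads in the group, the fitted mrg-1 RNAi ratio was −11.09.

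Most of that bin's GFP::Dam signal lay upstream of mfsd-12 on the coordinate scale: 42.6% of the wild-type reads fell in the 1 kb bin from 4661001, where no coding gene is annotated, and 3.78% in the 1 kb bins of mfsd-12. In the bin from 4670001, 79.0% of the wild-type GFP::Dam reads lay in mfsd-12 bins. Of its 107 wild-type Dam::EMR-1 reads, however, 54 fell in the 1 kb bin from 4677001, outside mfsd-12. The 1 kb bins of mfsd-12 together held 15, so this bin's Dam::EMR-1 signal mostly reflects DNA outside the gene. Pooled over the 1 kb bins of mfsd-12 itself, the log2 ratio was −4.92 in wild type and −3.66 in cec-4. The bin from 4670001 had 7.79 to 25.2 CPM with Dam::EMR-1 and 46.4 to 91.3 with GFP::Dam in wild type. Its ratio was closer to 0 than that of the first bin, at −2.75 ± 0.64 in wild type, −2.81 ± 0.64 in cec-4 (adjusted p = 0.00228), −4.19 ± 0.84 in mrg-1 RNAi (adjusted p = 0.00159) and −3.21 ± 0.65 in mrg-1 RNAi cec-4 (SE, adjusted p = 0.000901, edgeR). All 3 calls at both mfsd-12 bins held in every fit that left out a library.

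dep-1 (chromosome II, 9005796 to 9019798) encodes a receptor-type tyrosine phosphatase that restrains EGF receptor signalling through LET-23 in the vulva. It lies in the centre of chromosome II, where 75.6% of tested bins were called lower in wild type and 51.6%, 53.0% and 51.0% in cec-4, mrg-1 RNAi and mrg-1 RNAi cec-4. In the bin from 9000001, with 30.0% of the gene, wild-type Dam::EMR-1 had 0, 0.973 and 0.893 CPM and GFP::Dam 54.5, 93.9 and 132. The ratio was −7.30 ± 1.26 (SE), and all 3 pairs showed the same gap.

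In cec-4 Dam::EMR-1 at that dep-1 bin had 2.44, 4.60 and 2.11 CPM and GFP::Dam 18.5, 100.1 and 37.1. In mrg-1 RNAi cec-4 Dam::EMR-1 had 0, 10.6 and 1.08 and GFP::Dam 48.1, 111 and 83.5. Neither comparison overlapped, and both were called lower, at −4.21 ± 1.02 in cec-4 (adjusted p = 0.00347) and −4.63 ± 1.04 in mrg-1 RNAi cec-4 (SE, adjusted p = 0.00181, edgeR). The calls held without each library in turn.

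With mrg-1 RNAi alone, dep-1 depended on 1 library. In the bin from 9000001, Dam::EMR-1 had 2.79 CPM in replicate 2 and 27.2 in replicate 3, against 87.2 and 44.2 with GFP::Dam. In the bin from 9010001, with the other 70.0% of the gene, Dam::EMR-1 had 5.33 and 31.6 and GFP::Dam 138 and 80.5. Dam::EMR-1 replicate 3 was the high library in both bins. Their ratios, −1.82 ± 1.12 (adjusted p = 0.199) and −2.31 ± 0.99 (SE, adjusted p = 0.0679, edgeR), were not called, although DESeq2 called the second (adjusted p = 0.0273). Without Dam::EMR-1 mrg-1 RNAi replicate 3 they were −4.84 (adjusted p = 0.0359) and −4.68 (adjusted p = 0.0237), and without replicate 2 −0.91 and −1.46 (edgeR). That library had 5.69% empty 10 kb bins, and the part of this in the result was not tested.

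The dep-1 bin from 9010001 is filled by dep-1 alone. Its ratio was −5.26 ± 0.95 in wild type, −5.72 ± 0.95 in cec-4 (adjusted p = 0.000364) and −4.29 ± 0.89 in mrg-1 RNAi cec-4 (SE, adjusted p = 0.00105, edgeR). GFP::Dam was 62.5 to 151 CPM in wild type and 96.3 to 130 in cec-4, ranges that overlapped. In cec-4 75.8% of its GFP::Dam reads fell in the 1 kb bin from 9015001, inside dep-1, and in wild type 56.2%.

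gana-1 (chromosome V, 12087234 to 12088931) encodes a lysosomal alpha-galactosidase, an enzyme that removes terminal galactose from glycolipids and glycoproteins. It is the shortest of the 5 genes and lies whole within the bin from 12080001, which had few reads even with GFP::Dam. The 1 kb bins of gana-1 held 60.5% of these GFP::Dam reads in wild type. The share was 16.98% in cec-4, 48.1% in mrg-1 RNAi and 45.4% in mrg-1 RNAi cec-4, so most reads there lay outside gana-1. Of the 2 gana-1 bins of 1 kb, 1 was tested, and 0 were called lower in these 3 backgrounds (edgeR). In the 10 kb bin in wild type, Dam::EMR-1 had 0 reads in all 3 libraries and GFP::Dam had 5.96, 19.7 and 18.7 CPM. With 0 against 332 reads, Dam::EMR-1 was at least 37.5-fold lower, taking a floor of 3 reads over the group. In mrg-1 RNAi, Dam::EMR-1 had 0 reads in both libraries and GFP::Dam had 18 and 8.81 CPM, at least 38.0-fold lower, and this bin was called (adjusted p = 0.0156, edgeR). The call was lost without either Dam::EMR-1 mrg-1 RNAi library (replicate 2, adjusted p = 0.0697, replicate 3, adjusted p = 0.0809, edgeR).

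In cec-4 the gana-1 bin had 22, 1 and 0 Dam::EMR-1 reads and 0, 48 and 5 GFP::Dam reads in replicates 1 to 3. Replicate 1 thus had reads in Dam::EMR-1 and none in GFP::Dam, the reverse of replicates 2 and 3. The ratio of −0.78 ± 1.36 was not called (SE, adjusted p = 0.670, edgeR). Without GFP::Dam cec-4 replicate 2 it was 2.14 (adjusted p = 0.261) and without both cec-4 libraries of replicate 1 it was −4.90 (adjusted p = 0.0353, edgeR), an alternative chosen after the data were seen. No direction can be read from this bin in cec-4. The authors' deposited table of log2 ratios lists 2.90 there, and 0 for wild type and mrg-1 RNAi, where Dam::EMR-1 had no read.

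In mrg-1 RNAi cec-4 the gana-1 bin had 0, 2 and 2 Dam::EMR-1 reads and 17, 55 and 36 GFP::Dam reads. The groups did not overlap, and the ratio of −4.18 ± 1.61 was called (SE, adjusted p = 0.0423, edgeR). Leaving out any 1 of the 6 libraries ended the call, at adjusted p of 0.0531 to 0.114, as did scaling by library size alone (adjusted p = 0.0758, edgeR).

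**Figure D2:**
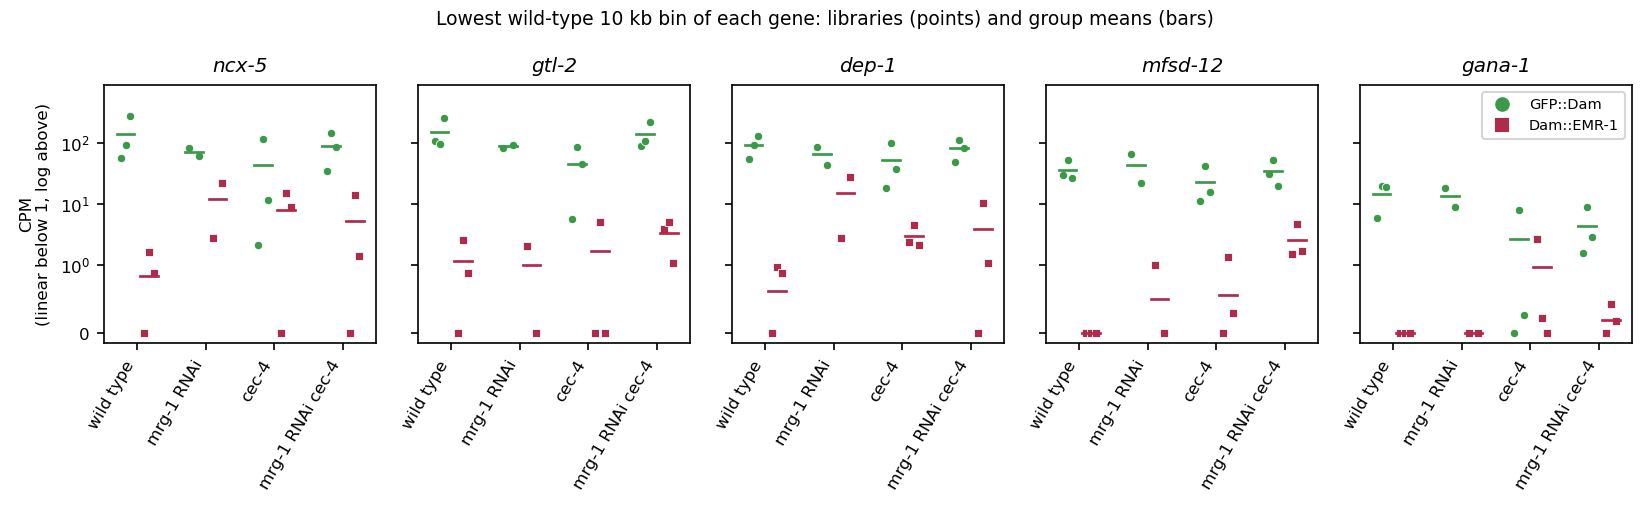
CPM (y axis, linear below 1 and logarithmic above) of every library in the 10 kb bin with the lowest wild-type ratio for each gene, by background (x axis). Points are libraries and bars group means. Dam::EMR-1 lay below every GFP::Dam library of the same background except at ncx-5 and gana-1 in cec-4.

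The GFP::Dam level, a measure of accessibility, differed widely among the 5 lowest-ratio bins, which at gtl-2 and mfsd-12 mostly reflect DNA outside the gene in every background. In wild type, GFP::Dam at the lowest-ratio bins averaged 141 CPM at ncx-5, 153 at gtl-2, 93.3 at dep-1, 36.2 at mfsd-12 and 14.8 at gana-1, against a median of 50.4 over all 10 kb bins. Dam::EMR-1 averaged 0.838, 1.16, 0.622, 0 and 0 in the same order, against a median of 40.0. The ncx-5, gtl-2 and dep-1 bins thus combined a GFP::Dam level above the median with almost no Dam::EMR-1, and the mfsd-12 and gana-1 bins lay below the median with both fusions. In cec-4, GFP::Dam averaged 43.3 at ncx-5, 45.7 at gtl-2 and 2.72 at gana-1, against a cec-4 median of 42.1. Each of these groups held a replicate 1 library at 0 to 5.76 CPM.

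As a description, differences of the fitted ratio from wild type are given for cec-4, mrg-1 RNAi and mrg-1 RNAi cec-4 in that order (log2, SE). At the lowest-ratio bins they were 5.11 ± 2.04, 5.12 ± 2.26 and 3.18 ± 2.02 at ncx-5, 1.81 ± 1.71, 0.32 ± 2.01 and 1.44 ± 1.65 at gtl-2, and 3.09 ± 1.47, 5.48 ± 1.64 and 2.67 ± 1.47 at dep-1. None is given for the mfsd-12 and gana-1 bins, where wild-type Dam::EMR-1 had 0 reads. The bins that hold most of the gene differed by 1.17 ± 1.26, 1.27 ± 1.41 and 1.01 ± 1.26 at gtl-2, by −0.46 ± 1.17, 2.95 ± 1.29 and 0.97 ± 1.15 at dep-1, and by −0.06 ± 0.83, −1.44 ± 0.97 and −0.46 ± 0.85 at mfsd-12. The genes were picked for low wild-type values, and no test was made of these differences.

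Among the 3 other backgrounds, the ratio was compared with tests that used no wild-type library in the contrast. The difference of mrg-1 RNAi cec-4 from cec-4 ranged from −3.4 ± 2.06 at gana-1 to 1.91 ± 1.18 at the mfsd-12 bin from 4660001 (log2, SE). That of mrg-1 RNAi cec-4 from mrg-1 RNAi ranged from −2.81 ± 1.45 at the dep-1 bin from 9000001 to 5.27 ± 3.4 at gana-1 (log2, SE). None of the 9 bins was called in either comparison, where 0% of all tested bins were called (edgeR). At an unadjusted p under 0.05, edgeR had 0 of 9 in each, and DESeq2 had 1 and 2 of 9 and 0 calls. GFP::Dam compared alone gave 0 calls in 9 bins (0% of all tested bins) and 0 bins at an unadjusted p under 0.05 with either tool. Its differences ranged from −0.40 to 1.62 within cec-4 and from −1.79 to 0.57 under mrg-1 RNAi (log2).

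At 1 kb the depletion was not limited to the genes. Of the 37 gene bins 28 passed the filter on low counts, and of the 200 flank bins 142 did. In cec-4, 11 of the 28 gene bins were called lower, against 11.5% of all tested 1 kb bins, with 7 of 28 against 7.46% in mrg-1 RNAi and 13 of 28 against 15.4% in mrg-1 RNAi cec-4 (edgeR). Of the 142 flank bins, 47, 34 and 73 were called lower in the same order, and 0 were called higher. Bins that pass a filter through GFP::Dam reads alone can hardly be called higher. Of the gene bins called lower, dep-1 held 9, 4 and 10. No count of calls is given for wild type, because wild-type values chose the genes. As a description, 18 of the 37 gene bins and 105 of the 200 flank bins held GFP::Dam reads only in wild type.

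These 1 kb counts depended on single libraries. Without Dam::EMR-1 cec-4 replicate 1 or replicate 3 the cec-4 count was 0, without GFP::Dam cec-4 replicate 3 it was 3, and without GFP::Dam cec-4 replicate 1 it was 6. The mrg-1 RNAi count was 0 without either Dam::EMR-1 library or without GFP::Dam mrg-1 RNAi replicate 3. The mrg-1 RNAi cec-4 count was 0 without Dam::EMR-1 replicate 3, 4 without Dam::EMR-1 replicate 1 and 7 without GFP::Dam replicate 1. With the replicate number as a block, mrg-1 RNAi and mrg-1 RNAi cec-4 had 11 and 21 gene bins called lower.

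**Figure D3:**
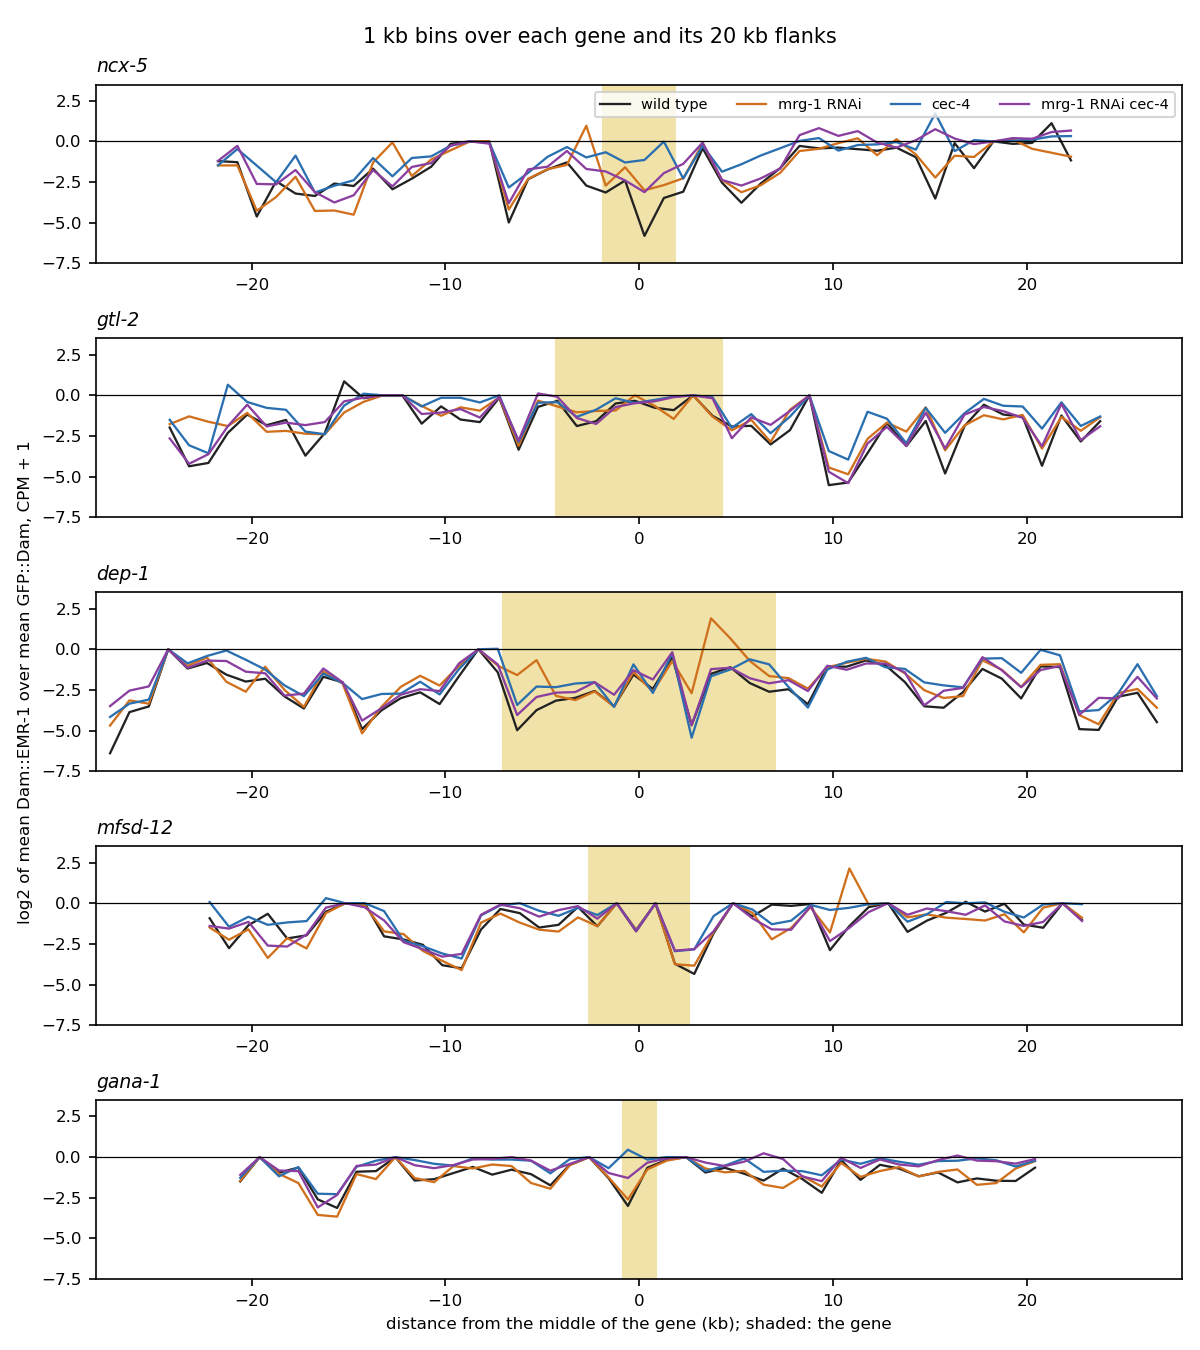
Log2 ratio of mean Dam::EMR-1 to mean GFP::Dam CPM, each plus 1 (y axis), in 1 kb bins against the distance from the middle of each gene in kb (x axis), with the gene shaded, for the 4 backgrounds. The dips at gtl-2 lie about 10 kb to the right of the gene's middle, at F54D1.6, whereas those at ncx-5 and dep-1 include the gene itself, and the mrg-1 RNAi line at dep-1 rises above 0.

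Summed over 1 kb bins, gene and flanks could be set side by side. At mfsd-12 the pooled ratio of the gene was lower than that of its flanks in each background, at −4.92 against −1.54 in wild type, −3.66 against −0.87 in cec-4, −4.75 against −2.11 in mrg-1 RNAi and −3.47 against −2.40 in mrg-1 RNAi cec-4 (log2 of the pooled shares of reads). At gtl-2 the order was the opposite, with −3.58 in the gene against −5.0 in its flanks in wild type, −1.79 against −3.75 in cec-4, −2.29 against −3.67 in mrg-1 RNAi and −2.67 against −4.13 in mrg-1 RNAi cec-4. With a pseudocount of 1 CPM and only the 8 replicate pairs of the 3 backgrounds other than wild type, the gene minus flank difference at mfsd-12 was negative in 8 of 8 pairs, with a mean of −1.64 ± 1.34 (SD, n = 8 pairs). It was negative in 6 of 8 pairs at ncx-5, 4 of 8 at dep-1, 0 of 8 at gtl-2 and 0 of 8 at gana-1. The gtl-2 and gana-1 gene bins had few GFP::Dam reads (5.75 to 10.9 and 0.271 to 8.68 CPM when pooled), and the pseudocount limits how low such a ratio can go.

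The dep-1 flanks also had low ratios. Pooled over the libraries, dep-1 stood at −5.60, −4.94, −2.13 and −4.64 in wild type, cec-4, mrg-1 RNAi and mrg-1 RNAi cec-4, and its flanks at −6.56, −4.21, −4.74 and −3.70. In mrg-1 RNAi the gene was thus 4.37-fold and its flanks 26.6-fold lower with Dam::EMR-1. The 306 Dam::EMR-1 reads behind the gene's value came from replicate 3 in 282 cases and from replicate 2 in 24. Flank bins of 1 kb in that window were ranked only where they overlap a gene with a standard symbol, of the form gcs-1. Among these, gcs-1, a glutathione synthesis gene active in the intestine, held the lowest bin. It had 12.2 against 308 CPM summed over the 3 other backgrounds.

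Genes with related functions were examined in 10 kb bins to place the 5 genes among their families, using lists that leave out the 5 genes and their bins. Over the 7 lists together, 129 bins were tested. Of these, 51 were called lower and 19 higher in wild type, 41 and 21 in cec-4, 37 and 15 in mrg-1 RNAi, and 49 and 20 in mrg-1 RNAi cec-4 (edgeR). The corresponding share over all tested bins was 29% lower in wild type, 20.3% in cec-4, 21.1% in mrg-1 RNAi and 22.9% in mrg-1 RNAi cec-4. The share called higher was 25.4%, 21.1%, 18.5% and 23.7% in the same order. The mrg-1 RNAi count fell to 18 without Dam::EMR-1 mrg-1 RNAi replicate 3 and to 20 without GFP::Dam mrg-1 RNAi replicate 3.

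The other sodium/calcium exchangers had mostly positive fitted ratios, and some of these were called higher in each background. Of their 8 bins, 1 was called lower in every background, the bin shared by ncx-6 and ncx-7, at −6.41 in wild type, −5.10 in cec-4, −6.17 in mrg-1 RNAi and −6.56 in mrg-1 RNAi cec-4. In wild type 4 bins were called higher, in cec-4 2, and in mrg-1 RNAi and mrg-1 RNAi cec-4 3 each, and the median was 2.02 in wild type and 1.61 in cec-4 (log2 ratio). In cec-4 the ratio was 1.66 at ncx-1, 2.61 at ncx-2, −1.34 at ncx-3, 2.37 at ncx-4, 2.47 at ncx-8, 1.1 at ncx-9 and 1.56 at ncx-10. Calcium-handling genes were mixed: in cec-4, 4 of 16 bins were lower and 5 higher. The calcium pump gene sca-1 (−3.83) stood lowest by the mean of the 3 backgrounds and the calcium channel gene unc-2 (1.96) highest.

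In the magnesium list, gtl-1, the TRPM gene nearest to gtl-2 and within its window, was low like gtl-2, at −4.60 in wild type and −3.78 in cec-4. The related channel genes gon-2 and ced-11 were not called in cec-4, at 0.60 and 0.11. Of 9 bins, 4 were lower and 1 higher in cec-4, with cnnm-2 lowest at −4.29 and cnnm-1 highest at 2.25. Among 8 bins of genes for phosphatases and phosphatase-like proteins listed with dep-1, 1 was lower and 2 higher in cec-4, with egg-5 lowest (−5.07) and egg-4 highest (2.36). Of 21 bins of the EGF receptor and Ras pathway, 4 were lower and 2 higher in cec-4. The EGF receptor gene let-23, on which dep-1 acts, was the lowest of them at −4.88 in wild type and −4.30 in cec-4. It starts at 9197512 on chromosome II, in the same chromosome centre as dep-1. In that centre 75.6% of tested bins were called lower in wild type and 51.6% in cec-4. The highest was lin-10, which helps to place that receptor in the membrane, at 1.71 in cec-4.

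Of 25 other major facilitator bins, 6 were lower and 7 higher in cec-4 and 10 and 5 in wild type. The lysosomal transporter gene spin-1 had the lowest value, at −6.58 in wild type and −4.74 in cec-4, and the vesicular glutamate transporter gene vglu-3 the highest, at 2.50 in cec-4. spin-1 starts at 12114993 on chromosome V, just beyond the 20 kb flank of gana-1, so its bin is a neighbour of 1 of the 5 genes. Lysosome genes, the list of gana-1, had the lowest median, −2.50 in wild type, −2.07 in cec-4, −2.45 in mrg-1 RNAi and −2.20 in mrg-1 RNAi cec-4. Of their 42 bins, 21, 21, 19 and 22 were called lower and 2, 2, 1 and 3 higher in that order. The DNase gene nuc-1 was lowest (−5.37 in cec-4) and the lysosomal amino acid transporter gene laat-1 highest (2.17).

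**Figure D4:**
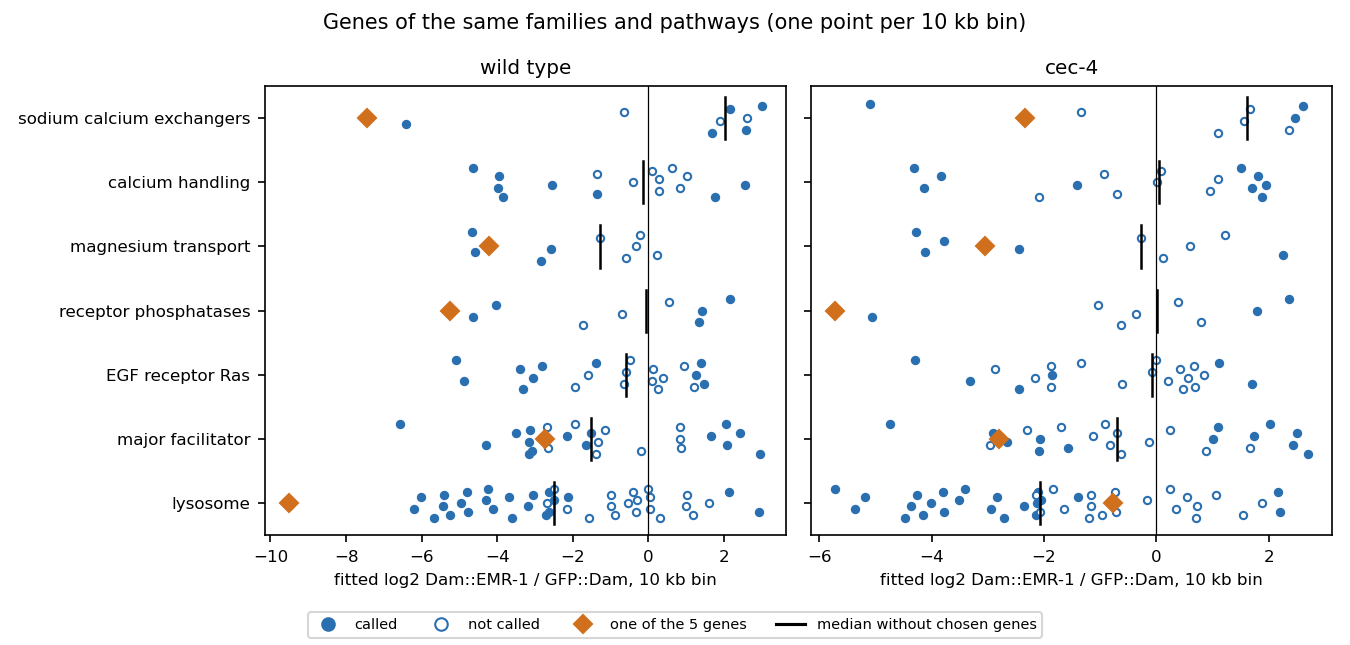
Fitted log2 ratio of Dam::EMR-1 to GFP::Dam (x axis) in the 10 kb bins of genes related to the 5 genes, by list (y axis), in wild type and cec-4. Filled points were called, open points were not, diamonds are the 5 genes at the bin that holds most of each gene, and lines are medians without them. The wild-type gana-1 value is fitted to 0 Dam::EMR-1 reads and depends on the prior count. The lysosome list has the lowest median (−2.50 and −2.07), and the sodium/calcium exchangers the highest (2.02 and 1.61).

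The bins most like each gene's main bin across the 22 libraries, at least 100 kb away, were found by Pearson's r of the log2 CPM, given as a description because the libraries share fusion and depth. For ncx-5 they lay at uig-1 (r = 0.968) and daf-36 (r = 0.962), for gtl-2 at fard-1 (r = 0.977) and inx-16 (r = 0.964), and for mfsd-12 at ins-1 (r = 0.967) and nkb-3 (r = 0.966). For dep-1 they lay at epn-1 (r = 0.976) and ztf-17 (r = 0.970), and for gana-1 at zip-5 (r = 0.931) and aman-2 (r = 0.928).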

How the data were processed

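Counts of mapped reads per 1, 10 and 100 kb bin, not normalized, were deposited for each library on build ce11, per the submitters' processing notes. The authors also deposited log2 tables of Dam::EMR-1 over GFP::Dam per background, used here only as named values. The aligner is not given in the sources used here. Gene positions came from a RefSeq annotation of the same assembly.

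One edgeR 4.0.16 fit (R 4.3.3, TMM scaling, filter on low counts, quasi-likelihood) over all 22 libraries gave each contrast, and Benjamini-Hochberg adjusted p-values covered all tested bins. The SE is the absolute log2 change divided by the square root of F. DESeq2 1.42.0 was an alternative. The script was tested on simulated data. Pair values used a pseudocount of 1 CPM and libraries of the same replicate number. Numbers pair the libraries, since, per the labels, the strains of 1 number were raised side by side. Between backgrounds, within 1 fusion, deviations from group means correlated above 0.1 in 15 of 15 GFP::Dam and 12 of 15 Dam::EMR-1 comparisons of the same number. Dam::EMR-1 was not compared with GFP::Dam in this way. The main fit held no term for the replicate number, so its p-values do not take this shared variation into account.

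The 5 genes, the lists and the tests were chosen with earlier results of these data known. Named genes were the 5 genes, all sodium/calcium exchangers, gtl-1, gon-2 and ced-11, the lowest and highest gene of each other list over the 3 backgrounds other than wild type, the target genes, the extreme flank genes of each window, and the 2 bins most like each gene. Extreme flank genes were sought only among genes with a standard symbol. Besides gcs-1, the lowest lay at aqp-5 (0.211 against 29.9 CPM), gtl-1 (0.229 against 18.3), nhr-45 (0.464 against 50.8) and nhr-207 (0.122 against 14.1). These are Dam::EMR-1 against GFP::Dam, summed over the 3 backgrounds other than wild type. The highest, at gtnt-14, nhr-7, ndub-2, ceh-1 and gtnt-38, held 0 to 3.17 against 0.345 to 15.1 CPM. Alternatives were library-size scaling, no filter, the contrast's own groups, a replicate block, DESeq2, 100 kb windows, a pseudocount of 5, 10 kb flanks and leaving out each library.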

Additional observations from a re-analysis of the deposited data

How the results depend on the processing

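At 10 kb, the counts of bins called lower ranged from 5 to 6 in cec-4, 4 to 5 in mrg-1 RNAi and 7 to 8 in mrg-1 RNAi cec-4 when 1 library was left out. The 1 kb counts of gene bins were far less stable. The cec-4 count of 11 became 2 with library-size scaling, 7 without the filter, 0 with only the contrast's groups, 17 with DESeq2, 0 without both cec-4 libraries of replicate 1 (added after the data were seen), and 0 to 10 without 1 library. The mrg-1 RNAi count of 7 became 0 with library-size scaling, 0 without the filter, 11 with the replicate block, 11 with DESeq2 and 0 to 5 without 1 library. The mrg-1 RNAi cec-4 count of 13 became 1, 8, 21 and 21 under the same settings and 0 to 10 without 1 library. The replicate block moved no 10 kb count by over 1.5 times. The list count of 37 in mrg-1 RNAi became 58 in 100 kb windows and 18 to 30 without 1 library. The median wild-type ratio of −7.12 ranged from −7.97 to −6.52 without 1 library. The gene minus flank difference averaged 0.37 over the 5 genes and all 11 pairs, wild type included, and 0.89 with a pseudocount of 5. That mean joins genes of opposite sign, such as mfsd-12 at −1.94 and gtl-2 at 2.21, and describes no single gene. Of 287 alternative fits of single bins, 25 lost a call, 6 gained one and 1 reversed: gana-1 in cec-4, at 2.14 without GFP::Dam cec-4 replicate 2, with −4.35 to 2.14 as its range without 1 library. The cause of these changes was not tested. The median 1 kb bin held 0 to 16 reads, and Dam::EMR-1 at gana-1 had 0 to 23 reads per group.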
